A study of Mus musculus with 31 samples.

Results

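Fetal liver hematopoietic stem cells (FL HSCs) that carry only 1 working copy of Crebbp were compared with wild-type (WT) FL HSCs over the probe sets of the array that are annotated to a gene. The 2 groups were Crebbp+/+ and Crebbp+/- FL HSCs of C57BL/6 mice, taken at 14.5 days post coitus, and the WT embryos were littermates of the mutants. The cells were lineage negative, positive for SCA1 and AA4.1 and bright for KIT. Each group had 2 pools, each pool combined 15 embryos, and each pool was hybridized to 2 arrays whose values were averaged, which gave 8 arrays in all. The liver cells had been frozen before the sort, 12 ng of RNA per pool was amplified with the Ovation kit, and a pool says nothing of the spread between single embryos. Sample numbers join WT pool 1 with Crebbp+/- pool 1 (pair 1) and WT pool 2 with Crebbp+/- pool 2 (pair 2), and each change below is Crebbp+/- minus WT within these pairs. A probe set is a group of probes on the array that reads out 1 transcript. Members are the probe sets annotated to exactly 1 gene whose highest pool reached log2(100), a level of 6.64. Left out were 102 probe sets listed by the study as intronic, intergenic, repeat, ambiguous or non-coding RNA. The list holds probe sets the study found changed between these same genotypes, and those classed as intronic were all lower. Leaving them out therefore takes decreases out of the members. That list does not cover the whole array, so members were not screened for introns, and some are long non-coding RNAs. These were 11109 of the 45037 probe sets that are not controls, and they cover 7310 of 18191 genes. RefSeq lists 10956 of them as protein coding. The probe sets nearest to the minimum, Kat2a, Atl3 and Itga4 just inside it and Myd88, Gnaq and Bcl6 just outside, had a highest pool of 6.64 when rounded. For the FL HSCs, p-values rest on the spread of the within-pair changes, not on that between pools. That spread was taken over these 2 pairs and 2 pairs of an Ep300 experiment in the same fit. It was drawn toward the spread typical of all probe sets.

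CREBBP is a large acetyltransferase that transcription factors such as phosphorylated CREB recruit to promoters and enhancers, where it acetylates histones and other proteins. EP300 is its close relative, with many shared partners. The amount of CREBBP matters in blood formation: mice with a single working copy lose hematopoietic stem cells with age, and in humans the loss of 1 copy causes Rubinstein-Taybi syndrome. In the midgestation embryo, the fetal liver is where stem cells expand before they move to the bone marrow.

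The 2 arrays of a pool correlated across members with r of 0.973 to 0.985. Of the genes the cells were sorted on, Kit (level 9.36 and 9.05 in WT, 9.34 and 9.32 in Crebbp+/-) and Cd93, the gene of AA4.1 (12.34 and 12.05 in WT, 12.24 and 12.16 in Crebbp+/-), were well measured in all 4 pools. Ly6a, the gene of SCA1, was not analysed here. None of the 3 lineage antigen genes, 14 macrophage genes or 7 mast cell and basophil genes with a probe set reached the minimum in any pool. Hepatocyte genes did so unevenly, for 1 of 14 genes in WT pool 1, 5 in WT pool 2, 2 in Crebbp+/- pool 1 and 3 in Crebbp+/- pool 2. The change of the 5 genes had a median of 3.03 in pair 1 and of -0.85 in pair 2, so the pairs went opposite ways. Albumin (Alb), for example, lay at 2.43 and 7.06 in WT and at 5.85 and 5.74 in Crebbp+/-. In all that follows, fewer cells of a type and less RNA per cell cannot be told apart.

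At 2 of its 3 probe sets, the inactivated gene did not separate the genotypes. The brightest of 3 Crebbp probe sets was at 12.07 and 11.41 in WT and at 11.95 and 11.66 in Crebbp+/-, a change of 0.07 ± 0.14 (SE). The next was at 9.63 and 8.49 in WT and at 9.47 and 8.67 in Crebbp+/- (0.01 ± 0.17), and the dimmest at 7.004 and 6.88 against 6.31 and 6.72 (-0.42 ± 0.16, adjusted p = 0.196 in the limma fit). In the first 2 the pairs went opposite ways. At the dimmest both mutant pools lay below both WT pools (unadjusted p = 0.0444 in limma's fit), as for 12% of all tested probe sets. In Crebbp+/- embryonic fibroblasts the same Crebbp probe sets were lower than in WT in each of 4 litters, by -0.79 ± 0.07, -0.60 ± 0.18 and -0.83 ± 0.09 (unadjusted p = 6.77e-05, 0.0175 and 0.000156 in limma's fit, adjusted p of 0.417 or more). The 2 brighter Crebbp probe sets therefore did not bear out the genotype labels of the FL HSC pools, and the dimmest was lower in Crebbp+/- without a call. The pools are called by those labels throughout. Ep300 was at 9.14 and 9.19 in WT and at 9.39 and 9.43 in Crebbp+/-, a difference of 0.24 ± 0.10 with adjusted p = 0.229.

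Most members differed little between the genotypes. Of all members, 91.7% lay within 1.5-fold of WT. The median change was 0.06 on the log2 scale, 0.05 in pair 1 and 0.08 in pair 2. Both pairs were higher for 4592 members and both lower for 2591, while 3926 differed in sign. The changes of pair 1 and pair 2 correlated across members with Pearson's r of 0.42, a description over probe sets that share the pools. A call required a Benjamini-Hochberg adjusted p under 0.05 in limma's paired fit over 13332 probe sets and a fold change over 1.5. Of the 11109 members it was made for 8 higher in Crebbp+/- and 11 lower, against 10 (0.075%) and 41 (0.308%) of the 13332 tested. The calls sit at the very edge of the threshold, with adjusted p between 0.0486 and 0.0495, and none was made when the pair block was left out or when only the 4 Crebbp pools were fitted. A wider count took members past an unadjusted p of 0.05 and 1.5-fold, here called the unadjusted rule. It held 516 members higher (4.64%, against 4.68% of all tested) and 328 lower (2.95%, against 5.32% of all tested). The left-out probe sets were chosen from this same comparison and were mostly lower, which by itself reduces the lower counts and shares of members. The split of 516 and 328 also depended on the scaling and the block, with 420 higher and 379 lower for pools centred on their median and 210 and 197 without the pair block. Calls with centred pools were 31 higher and 58 lower. The 1055 tested probe sets with no gene in the annotation had 32 higher and 259 lower.

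**Figure D1:**
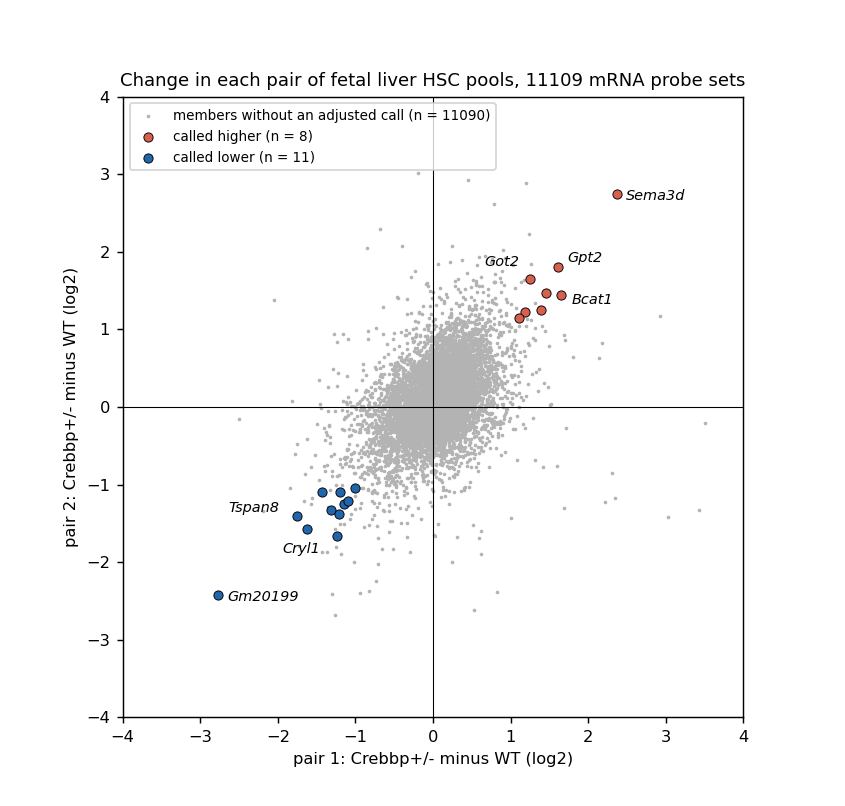
Change of each member in pair 1 (x axis) and pair 2 (y axis), Crebbp+/- minus WT on the log2 scale, with 1 point per probe set. The cloud is tilted upward (r of 0.42), and the 19 called members lie far out with nearly equal values in both pairs, which the paired call selects for.

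The size of the change depended on the level of the probe set. Of 1390 members with a mean level of 11 or more, all lay within 1.5-fold and none passed the unadjusted rule. Of 1314 members between 10 and 11, 17 passed it higher and 9 lower. Of 3325 between the minimum and 8, 218 passed higher and 132 lower, and of 1053 with a mean under the minimum 135 and 114. Under the minimum, GCRMA's background step can set how large a change looks, so folds there are not exact. It also mattered which probe set of a gene was read. At the brightest member of each gene, 3.71% passed the unadjusted rule higher and 1.97% lower, and 3 members were called in each direction. At the other, dimmer members of a gene the shares were 6.45% and 4.84%, with 5 and 8 calls. Of the 2536 genes with several members, 270 had 1 or more member past the rule higher and 183 lower, but every member passed in the same direction for only 11 genes higher and 8 genes lower. In 13 genes members passed in both directions.

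**Figure D2:**
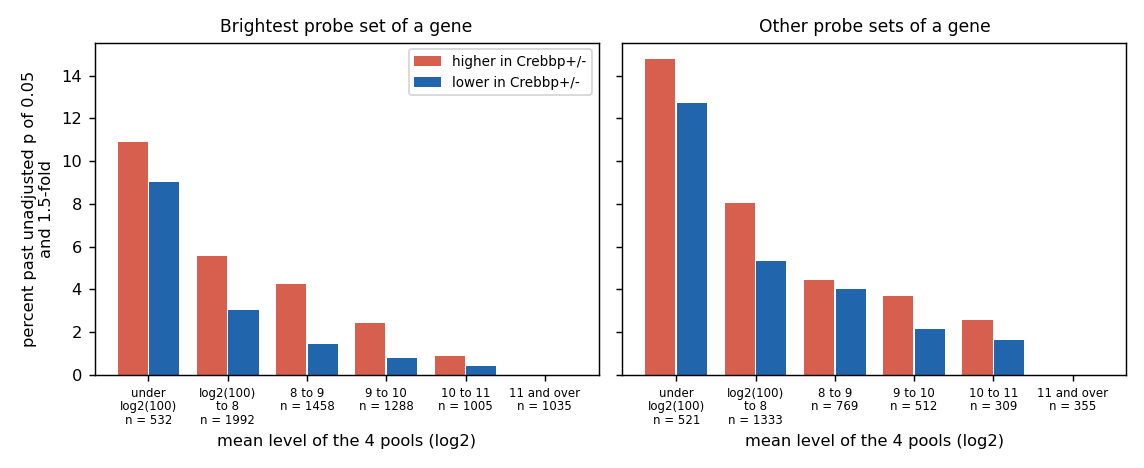
Percent of members past an unadjusted p of 0.05 and 1.5-fold (y axis) by mean level over the 4 pools (x axis), for the brightest probe set of each gene (left) and all other members (right). The shares decline from the dimmest bin to 0 at levels of 11 and over, and the higher bar is the taller of the 2 in each bin below that.

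Of the 8 called increases, 3 were genes of transaminases. Bcat1, the cytosolic enzyme that moves the amino group of branched-chain amino acids, was at 7.998 and 7.94 in WT and at 9.65 and 9.38 in Crebbp+/-. Both mutant pools were far above both WT pools, and the change was 1.55 ± 0.11 (SE), 2.93-fold. It was the only called increase with both group means above the minimum. Gpt2, the mitochondrial alanine transaminase, was at 6.37 and 5.02 in WT and at 7.98 and 6.82 in Crebbp+/- (1.71 ± 0.15). At its brighter probe set the difference was 0.54 ± 0.19. Got2, the mitochondrial aspartate transaminase, was at 6.66 and 4.82 in WT and at 7.91 and 6.47 in Crebbp+/- (1.45 ± 0.14), so WT pool 1 lay above Crebbp+/- pool 2. Its brighter probe set, at a mean level of 10.64, did not separate the genotypes at all (-0.00 ± 0.10). Got1, the cytosolic aspartate transaminase, was at 6.16 and 4.99 in WT and at 6.86 and 6.34 in Crebbp+/-, a difference of 1.03 ± 0.18 that missed the call (adjusted p = 0.0705).

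Most other genes of amino acid metabolism lay within 1.5-fold. Of the 47 genes listed for amino acid synthesis, transport and targets of ATF4, the factor that induces such genes under amino acid shortage, 31 were measured. Bcat1 was the only 1 called at its brightest probe set, 3 passed the unadjusted rule higher and 1 lower, and the median change was 0.05, close to the 0.06 of all genes. The others past the rule were Got1, the neutral amino acid transporter Slc1a4 (0.61) and, on the lower side, Cebpb (-0.59). Mthfd2, of mitochondrial one-carbon metabolism, was at 9.62 and 9.52 in WT and 10.07 and 10.05 in Crebbp+/- (0.49 ± 0.10, adjusted p = 0.0853). Atf4 (0.05), Asns (0.18) and Phgdh (-0.01), the genes of the factor itself, of asparagine synthetase and of the entry enzyme of serine synthesis, stayed within 1.5-fold. All 18 measured aminoacyl-tRNA synthetase genes stayed within 1.5-fold too, with a median of 0.11 and Lars (0.52) and Kars (0.44) in front. The Got1 promoter is shown because Got1 lies in this list and its window holds TGATGNAA, a motif of the kind that ATF4 and its C/EBP partners bind. Of all promoters in the table of 300-base windows, 3.97% hold the motif on either strand, as do 158 of 6029 member genes with a window. It was found in 4 of 27 genes of the list and 5 of 12 synthetase genes with a window. Of the 7 called increases with a window, which include Bcat1 and Gpt2, 0 hold it. The RefSeq sequence (GRCm38.p6, chr19:43524556-43524855 on the minus strand) is written 5′ to 3′ on the gene's strand, with the match in capitals.
Got1: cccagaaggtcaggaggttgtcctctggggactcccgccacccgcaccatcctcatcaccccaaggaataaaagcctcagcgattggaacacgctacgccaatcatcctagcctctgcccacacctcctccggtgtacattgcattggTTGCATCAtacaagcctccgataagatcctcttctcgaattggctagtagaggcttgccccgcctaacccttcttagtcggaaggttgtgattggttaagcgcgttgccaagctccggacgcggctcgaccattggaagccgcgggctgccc

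The other 5 called increases all had a WT mean under the minimum. Sema3d, a secreted semaphorin that guides migrating cells, was at 4.56 and 3.39 in WT and at 6.92 and 6.13 in Crebbp+/-. Both mutant pools lay above both WT pools, by 2.56 ± 0.24, but only 1 pool reached the minimum. Mpped2, a metallophosphoesterase, went from 5.83 and 5.16 to 7.29 and 6.63 (1.46 ± 0.14). Pvr, the poliovirus receptor of the nectin family of adhesion proteins, went from 5.89 and 5.16 to 7.28 and 6.41 (1.32 ± 0.12), and its brighter probe set was also higher (0.82 ± 0.13). Tgif2, a homeodomain corepressor of TGF-beta signaling, was at 6.91 and 4.78 in WT and 8.01 and 5.94 in Crebbp+/- (1.13 ± 0.11). Arih2, a ubiquitin ligase, was at 5.77 and 4.07 against 6.96 and 5.29 (1.21 ± 0.11). In Tgif2, Arih2 and Got2 the WT and mutant pools overlapped, since pool 1 exceeded pool 2 in both genotypes, and the increase shows only within the pairs. The remaining 5 called increases had no overlap, a state that 16.2% of all tested probe sets reached higher and 12% lower. The brighter Arih2 probe set differed by -0.06 ± 0.12 and that of Tgif2 by 0.38 ± 0.12.

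**Figure D3:**
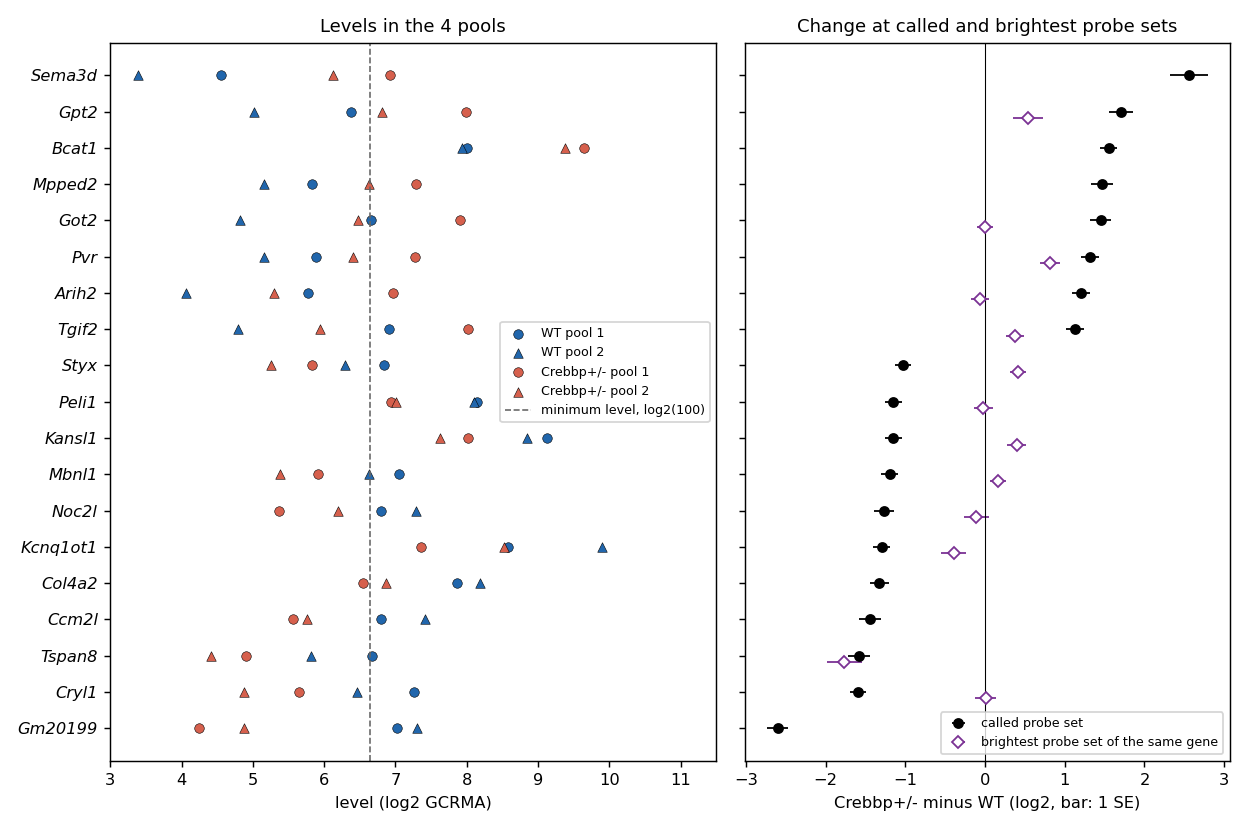
Left, level of each called probe set in the 4 pools on the log2 scale, with the minimum of log2(100) dashed. Right, change of the called probe set (black) and of the brightest probe set of the same gene (open diamonds) with 1 SE. Of 13 such genes, the brightest probe set of 6 lay within 0.2 of 0.

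The 11 called decreases included genes of the basement membrane and the cell surface. Col4a2, a chain of the type IV collagen of basement membranes, was at 7.87 and 8.19 in WT and at 6.55 and 6.86 in Crebbp+/-, with no overlap and a change of -1.32 ± 0.11. Tspan8, a tetraspanin of the cell surface, was at 6.67 and 5.81 in WT and at 4.91 and 4.41 in Crebbp+/- (-1.58 ± 0.13), and all 3 of its probe sets were lower, from -1.53 to -1.77. Ccm2l, a relative of the endothelial adaptor CCM2, was at 6.80 and 7.42 against 5.56 and 5.76 (-1.45 ± 0.14). The non-coding RNA Kcnq1ot1, transcribed from the paternal copy of the Kcnq1 imprinted domain, was at 8.58 and 9.89 against 7.37 and 8.52 (-1.29 ± 0.11), with -0.40 ± 0.16 at its brighter probe set. The largest called decrease was at Gm20199, which RefSeq lists as a long non-coding RNA, at 7.02 and 7.30 in WT and 4.25 and 4.87 in Crebbp+/- (-2.60 ± 0.13). Of the 11 called decreases, 7 had a mutant mean under the minimum, so their folds are not exact. They were Gm20199, Tspan8, Ccm2l, Styx, Mbnl1, Noc2l and Cryl1.

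The other 6 called decreases were at dimmer probe sets of genes whose brightest probe set was not lower at an unadjusted p under 0.05. Kansl1, a scaffold of an acetyltransferase complex, was at 9.12 and 8.84 in WT and at 8.02 and 7.63 in Crebbp+/- (-1.15 ± 0.11), while its brighter probe set was higher by 0.40 ± 0.12 (unadjusted p = 0.0214 in limma's fit). Styx, a pseudophosphatase, was at 6.84 and 6.29 against 5.83 and 5.25 (-1.03 ± 0.10), and its brighter probe set was higher by 0.41 ± 0.10 (unadjusted p = 0.0106 in limma's fit). Peli1, a ubiquitin ligase of Toll-like receptor signaling, was at 8.14 and 8.10 against 6.93 and 7.01 (-1.15 ± 0.10), with -0.02 ± 0.12 at the brighter probe set. The splicing regulator Mbnl1 (-1.20 against 0.16), the nucleolar protein gene Noc2l (-1.26 against -0.11) and the crystallin-like dehydrogenase gene Cryl1 (-1.60 against 0.01) had the same form. A further probe set was lower for Peli1 (-0.50 ± 0.12) and Mbnl1 (-0.48 ± 0.11), and not for Styx (0.14) or Cryl1 (0.29). The probe sets of these 6 genes thus did not give 1 answer. Which part of each transcript these probe sets match was not analysed here. For Mbnl1, the study states that its changed mRNA probe set could read a putative alternative last exon or an intron of a longer transcript.

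Some genes differed at all of their probe sets, most of them without a call. Malat1, an abundant nuclear non-coding RNA, had 5 member probe sets and was lower in all of them, from -0.52 at the brightest (12.62 and 12.61 in WT, 12.16 and 12.04 in Crebbp+/-) to -0.98 at the dimmest (adjusted p = 0.0508 in limma's fit). The 11 genes with every member past the unadjusted rule higher were chosen after their values were seen. They were Ccr9, Fech, Gli3, Btbd11, Shisa2, Pvr, Srr, Ifi27, Dusp7, Usp45 and Ctnnd1. Gli3, a transcription factor of the Hedgehog pathway, was at 7.37 and 7.39 in WT and at 8.81 and 8.37 in Crebbp+/- (1.21 ± 0.14, adjusted p = 0.0508), and its second probe set was higher by 1.07. Fech, the ferrochelatase that completes heme, was at 7.05 and 6.72 against 7.998 and 7.93 (1.08 ± 0.14, adjusted p = 0.0513), with 1.23 at the second probe set. The 8 genes with every member lower were Tspan8, Tgm2, Col18a1, Setd4, Gsn, Tmem191c, Pds5a and Arrdc1, chosen in the same way. Tmtc3 and Ccny show the opposite case, with probe sets from -1.97 to 0.90 and from -1.76 to 1.07.

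The remaining uncalled genes are those with the smallest p in each direction among members with both group means at the minimum. On the higher side stood Gdpd1, a lysophospholipase (1.18), Rps6ka6, a kinase of the ribosomal S6 kinase family (1.17), Myh10, a nonmuscle myosin heavy chain (1.03), Shisa2, an antagonist of Wnt and FGF receptors (0.96), Senp2, a SUMO protease (0.90), Ifi27, an interferon-induced gene (0.90), and Aebp2, a Polycomb cofactor (0.82). Their adjusted p in limma's fit lay between 0.0505 and 0.0518. On the lower side, besides Malat1, were Msi2 (-1.42), Mir1931 (-1.12), Akap13 (-1.09), Helz (-1.08) and Phf14 (-0.92). The Msi2 probe set is one that the study lists as intronic. The other 4 Msi2 probe sets, which include the brightest at 12.72 and 12.32 in WT and 12.58 and 12.26 in Crebbp+/-, ranged from -0.37 to 0.24. Akap13, a kinase anchor, and Phf14, a PHD finger protein, likewise had brightest probe sets at 0.14 and 0.03, although a second dim Akap13 probe set was at -1.32. Another Phf14 probe set was higher by 0.39.

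By the unadjusted rule, genes of the extracellular matrix and of adhesion had the largest share of lower genes of the 22 gene lists. The lists were set with earlier results of these data known, so ranks of lists here and below are description only. Of 43 listed genes 15 were measured, 6 of them passed the unadjusted rule lower and 1 higher (Sema3d), and the median was -0.10 (-0.15 in pair 1, -0.06 in pair 2). Over all genes the shares past the rule were 1.97% lower and 3.71% higher. Beside Col4a2 and Tspan8, the lower genes were Col4a1 (-0.96), the second chain of type IV collagen, Col18a1 (-0.98), which makes the basement membrane collagen that releases endostatin, Ecm1 (-1.06) and the crosslinking enzyme Tgm2 (-0.80). Col4a1 was at 6.86 and 7.55 in WT and at 6.17 and 6.31 in Crebbp+/-, and Tgm2 at 8.17 and 7.98 against 7.37 and 7.19. In both, as in Col4a2, Col18a1, Ecm1 and Tspan8, the highest mutant pool was below the lowest WT pool, as for 9.21% of all genes. Vim (-0.12), Lgals1 (-0.10), Anxa1 (0.01) and Anxa2 (0.07) did not follow. Of the defining endothelial and stromal genes, 2 of 14 reached the minimum in any pool (1, 2, 1 and 2 genes in WT pools 1 and 2 and Crebbp+/- pools 1 and 2). The summed level of that list, in log2, was 8.74 and 8.97 in WT and 8.57 and 8.73 in Crebbp+/-, and its part in the result was not tested. Col4a1 and Col4a2 are neighbors that are read in opposite directions from a shared promoter, which is why both windows are printed. The Col4a1 window (chr8:11312777-11313076 on the minus strand) and the Col4a2 window (chr8:11312555-11312854 on the plus strand) share 78 bases. Neither TGACG, TGACGTCA nor TGATGNAA was found in them, so they hold no capitals.
Col4a1: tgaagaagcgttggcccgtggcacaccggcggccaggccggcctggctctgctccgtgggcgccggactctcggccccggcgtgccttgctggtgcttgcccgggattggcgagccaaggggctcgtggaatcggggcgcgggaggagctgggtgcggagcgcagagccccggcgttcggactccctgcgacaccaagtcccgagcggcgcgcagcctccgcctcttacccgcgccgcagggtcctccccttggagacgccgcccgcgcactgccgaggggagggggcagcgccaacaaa
Col4a2: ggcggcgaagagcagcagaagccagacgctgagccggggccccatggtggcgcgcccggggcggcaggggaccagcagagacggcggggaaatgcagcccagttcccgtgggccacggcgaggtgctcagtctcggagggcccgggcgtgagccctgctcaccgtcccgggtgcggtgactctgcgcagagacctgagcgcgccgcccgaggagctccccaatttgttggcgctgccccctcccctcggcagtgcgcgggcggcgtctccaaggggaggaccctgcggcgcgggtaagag

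Immediate early and cAMP-responsive genes, a mixed list that also holds the factor gene Creb1 and the coactivator genes Crtc2 and Crtc3, were on balance lower in Crebbp+/-. Of 36 listed genes 24 were measured. The median was -0.27 (-0.34 in pair 1, -0.21 in pair 2), the lowest of the 22 gene lists, against 0.06 for the 7310 genes. Both pairs were lower for 16 of 24 genes and both higher for 3, against 24.2% and 40.6% of all genes. None was called, 3 passed the unadjusted rule lower and 1 higher. Sik1, a kinase that is itself induced by cAMP and restrains CREB coactivators, was at 5.74 and 6.65 in WT and at 4.08 and 5.43 in Crebbp+/- (-1.44 ± 0.18, adjusted p = 0.0513), with only WT pool 2 at the minimum. Nr4a2, a nuclear receptor of the immediate early class, was at 7.62 and 8.82 in WT and at 7.05 and 7.81 in Crebbp+/- (-0.79 ± 0.14, adjusted p = 0.0761). Fosb, an AP-1 subunit, was at 8.82 and 9.65 against 7.76 and 9.28 (-0.71). Zfp36, which speeds the decay of AU-rich mRNAs, was at 8.75 and 9.995 against 8.13 and 9.61 (-0.50 ± 0.11), Ier5 at 7.34 and 8.15 against 6.68 and 7.75 (-0.53), and the MAP kinase phosphatase Dusp1 at 11.88 and 12.49 against 11.34 and 12.24 (-0.39). The higher gene was Fosl2 (0.68). Jun (-0.06), Egr1 (-0.15) and Dusp6 (-0.06) were close to WT.

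These genes also differed between the pool numbers, and by more than between the genotypes. Pool 2 exceeded pool 1 for 20 of 24 genes in WT and for 20 of 24 in Crebbp+/-, with a median of 0.57 and 0.69, while over all genes pool 2 was the higher one for 48.3% in WT and 51.9% in Crebbp+/-. In Nr4a2, Fosb, Zfp36, Ier5 and Dusp1 the WT and mutant pools therefore overlapped, and the difference was visible only within a pair. In Sik1 they did not overlap. Without the pair block the median of the list was the same, and no gene of it passed the unadjusted rule in either direction.

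**Figure D4:**
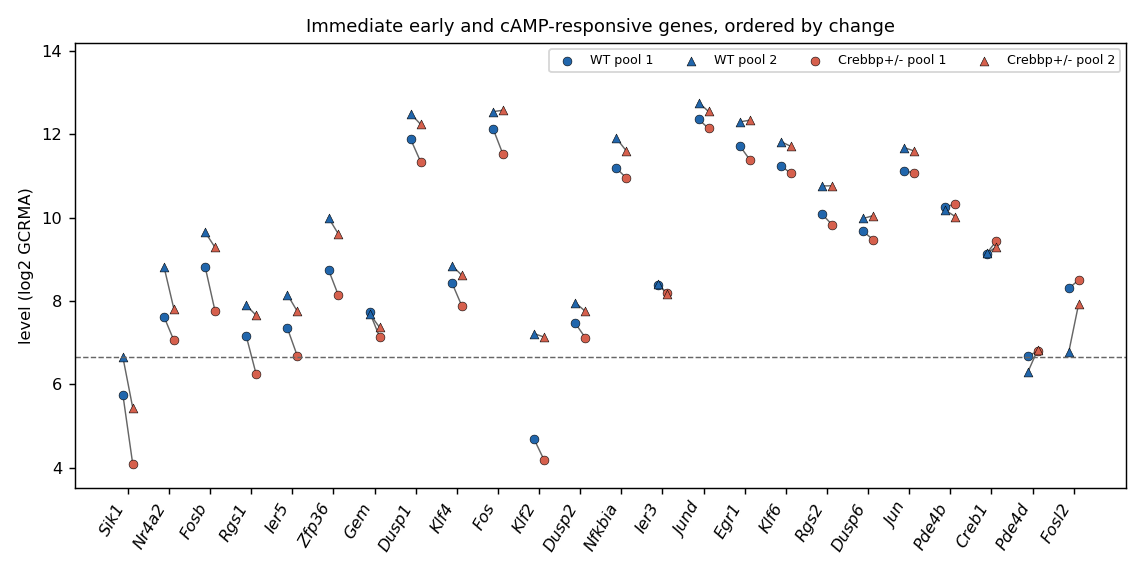
Level (y axis, log2) of the 24 measured immediate early and cAMP-responsive genes in the WT (blue) and Crebbp+/- (red) pools, with pools of a pair joined by a line. Most lines slope down from WT to Crebbp+/-, and for 20 of 24 genes pool 2 is above pool 1 in each genotype.

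The promoters of 3 genes with lower values are shown for the cAMP response element, the site that CREB binds, whose full form is TGACGTCA and whose shorter form is TGACG. The windows run from 250 bases before to 50 bases after the RefSeq start (GRCm38.p6), 5′ to 3′ on the gene's strand. They lie at chr2:57123954-57124253 on the minus strand, at chr7:19309996-19310295 on the minus strand and at chr17:26508423-26508722 on the minus strand for Nr4a2, Fosb and Dusp1. Capitals mark matches on either strand, also where the short form lies within the full form. Nr4a2 holds 4 short forms, Fosb 1, and Dusp1 1 full form with both its short forms plus a separate short form. Of all promoter windows, 1.79% hold the full form and 20.8% the short form. Of the 20 genes of the list with a window, 1 holds the full form and 9 the short form, while 231 and 2345 of the 6029 member genes with a window do. Zfp36 holds neither in its window, and Sik1 has no entry.
Nr4a2: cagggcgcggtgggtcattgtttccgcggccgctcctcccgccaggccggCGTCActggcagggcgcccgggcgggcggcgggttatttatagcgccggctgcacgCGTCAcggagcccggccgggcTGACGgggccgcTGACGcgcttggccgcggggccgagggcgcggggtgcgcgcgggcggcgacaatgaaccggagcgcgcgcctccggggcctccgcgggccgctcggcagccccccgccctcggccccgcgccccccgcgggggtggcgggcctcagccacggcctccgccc
Fosb: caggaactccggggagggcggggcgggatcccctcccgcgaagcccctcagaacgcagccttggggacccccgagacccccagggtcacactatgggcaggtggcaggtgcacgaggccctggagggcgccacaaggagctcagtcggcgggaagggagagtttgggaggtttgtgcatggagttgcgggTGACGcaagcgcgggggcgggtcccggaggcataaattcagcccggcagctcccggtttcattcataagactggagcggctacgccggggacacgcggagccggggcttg
Dusp1: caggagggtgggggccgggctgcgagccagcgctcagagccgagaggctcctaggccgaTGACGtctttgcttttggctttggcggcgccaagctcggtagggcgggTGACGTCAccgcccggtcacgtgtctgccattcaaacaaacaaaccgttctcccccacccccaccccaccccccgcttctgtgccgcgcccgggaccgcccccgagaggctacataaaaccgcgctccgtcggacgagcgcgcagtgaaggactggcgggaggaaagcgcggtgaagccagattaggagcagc

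Transcription factors of stem cells were mostly within 1.5-fold, 32 of 35 measured, with a median of 0.03. The 3 exceptions were Meis1, Hoxa5 and Prdm16. Meis1, a homeobox partner of HOX proteins that maintains stem cells, was at 7.99 and 7.52 in WT and at 6.92 and 6.08 in Crebbp+/- at its brightest member (-1.26 ± 0.14, adjusted p = 0.0508). The study lists that probe set as intronic. Another Meis1 probe set was lower by a like amount (-1.29). According to the study, its changed Meis1 mRNA probe set could read a putative alternative last exon or an intron of a longer transcript. The third Meis1 probe set, nearly as bright as the first, was at 6.88 and 7.58 in WT and at 6.86 and 7.09 in Crebbp+/-, a difference of -0.26. Hoxa5 was at 6.58 and 6.82 against 5.86 and 6.23 (-0.65 ± 0.14). Prdm16, a zinc finger protein needed for stem cell maintenance, was at 7.79 and 7.01 against 8.41 and 7.91 (0.76 ± 0.12, adjusted p = 0.0660), but its dimmer probe set differed by -0.35. Hlf (-0.54), Mecom (-0.38), Lyl1 (-0.36) and Hoxa9 (-0.31) were lower with smaller values and Id1 (0.50) and Bmi1 (0.36) higher. Runx1 (0.11), Myb (-0.01) and Gata2 (0.20) stayed close to WT.

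Of 23 measured surface proteins of stem cells, 3 passed the unadjusted rule lower and none higher, against 1.97% and 3.71% of all genes. The median was 0.06. Procr, the endothelial protein C receptor that marks stem cells, was at 8.18 and 7.71 in WT and at 7.57 and 6.69 in Crebbp+/- (-0.81 ± 0.16, adjusted p = 0.0826). Tie1, an orphan receptor of angiopoietin signaling, was at 8.23 and 7.97 against 7.06 and 7.68 (-0.73 ± 0.23), and Eng, a TGF-beta coreceptor, differed by -0.66. Robo4, a roundabout receptor of endothelium and stem cells, was at 6.70 and 6.65 against 5.96 and 6.25 (-0.57 ± 0.17). In each of these the highest mutant pool was below the lowest WT pool, as for 5 of the 23 genes and 9.21% of all genes. On the higher side 3 of the 23 had no overlap, against 17.1% of all genes. Kit (0.12), Cd93 (0.00), Cd34 (0.07), Tek (0.06), Itga4 (0.03) and Ptprc (0.12) differed little.

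Genes of committed lineages differed in both directions. Of 23 lymphoid genes with a probe set, 7 were measured, 2 passed the unadjusted rule higher and none lower, with a median of 0.47 (0.73 in pair 1 and 0.08 in pair 2). Ccr9, a chemokine receptor of thymus-seeding progenitors, was at 7.38 and 6.66 in WT and at 8.40 and 8.49 in Crebbp+/- (1.43 ± 0.21, adjusted p = 0.0605). Ebf1, the transcription factor that specifies B cells, was at 5.17 and 7.51 in WT and at 7.31 and 8.14 in Crebbp+/- (1.38 ± 0.39), so the groups overlapped. Il7r, the receptor of interleukin 7, was at 6.55 and 7.67 against 7.29 and 8.33 (0.70 ± 0.27). The summed level of the list in log2 was 12.26 and 12.48 in WT and 12.42 and 12.65 in Crebbp+/-, and its part in the result was not tested. Of the erythroid list 5 of 21 genes were measured, with Fech higher and Tspan8 lower, and Urod, of heme synthesis, at -0.36. Of the megakaryocyte list 2 of 12 were measured. Gp9, of the platelet glycoprotein complex, was at 6.84 and 6.80 in WT and at 5.37 and 5.85 in Crebbp+/- (-1.21 ± 0.16, adjusted p = 0.0542), and the transcription factor gene Nfe2 differed by -0.10. None of the 14 measured granulocyte and monocyte genes passed the unadjusted rule. Lyz2, of lysozyme, was lower by 0.54 ± 0.10 (9.56 and 9.42 against 9.03 and 8.89), and Cebpa, the factor that starts granulocyte development, was at 8.68 and 9.28 against 9.15 and 9.75 (0.47 ± 0.11).

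Genes of growth and division were nearly all within 1.5-fold of WT. All 32 measured DNA replication genes lay within 1.5-fold (median 0.08), and Rfc3 (0.40), Dtl (0.39) and Cdc6 (0.35) came first. The dimmer Dtl probe sets went the other way, by -0.52 ± 0.13 and -1.33 ± 0.18. Of 35 cell cycle genes 1 passed the unadjusted rule, the mitotic kinesin gene Kif11 (8.95 and 8.59 in WT, 9.57 and 9.30 in Crebbp+/-, 0.67 ± 0.12), and the median was 0.09. Plk1 (0.42), Rbl1 (0.42) and Cdk6 (0.39) were next. Of 48 ribosome biogenesis genes, 25 were higher in both pairs and 5 lower in both, against 40.6% and 24.2% of all genes. Sdad1 (0.62 ± 0.10) was the gene past the rule, ahead of Rrp1b (0.50) and Nolc1 (0.41). The 38 ribosomal protein genes were all within 1.5-fold, with a median of -0.03 and 21 lower in both pairs, against 24.2% of all genes. The 40 genes of respiration and the TCA cycle (median 0.01), the 54 splicing factor genes (0.01), the 20 of purine and pyrimidine synthesis (0.08), the 21 of protein folding (0.08) and the 23 of glycolysis and hypoxia (0.00) had none past the rule. The highest of each were Ndufa9 (0.30), Mbnl3 (0.38), Prps1 (0.39), Pdia3 (0.38) and the oxygen sensor gene Egln1 (0.57). The pools centred on their median gave a change of 0.02 for all members in place of 0.06, so small shifts of this kind depend on the scaling.

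**Figure D5:**
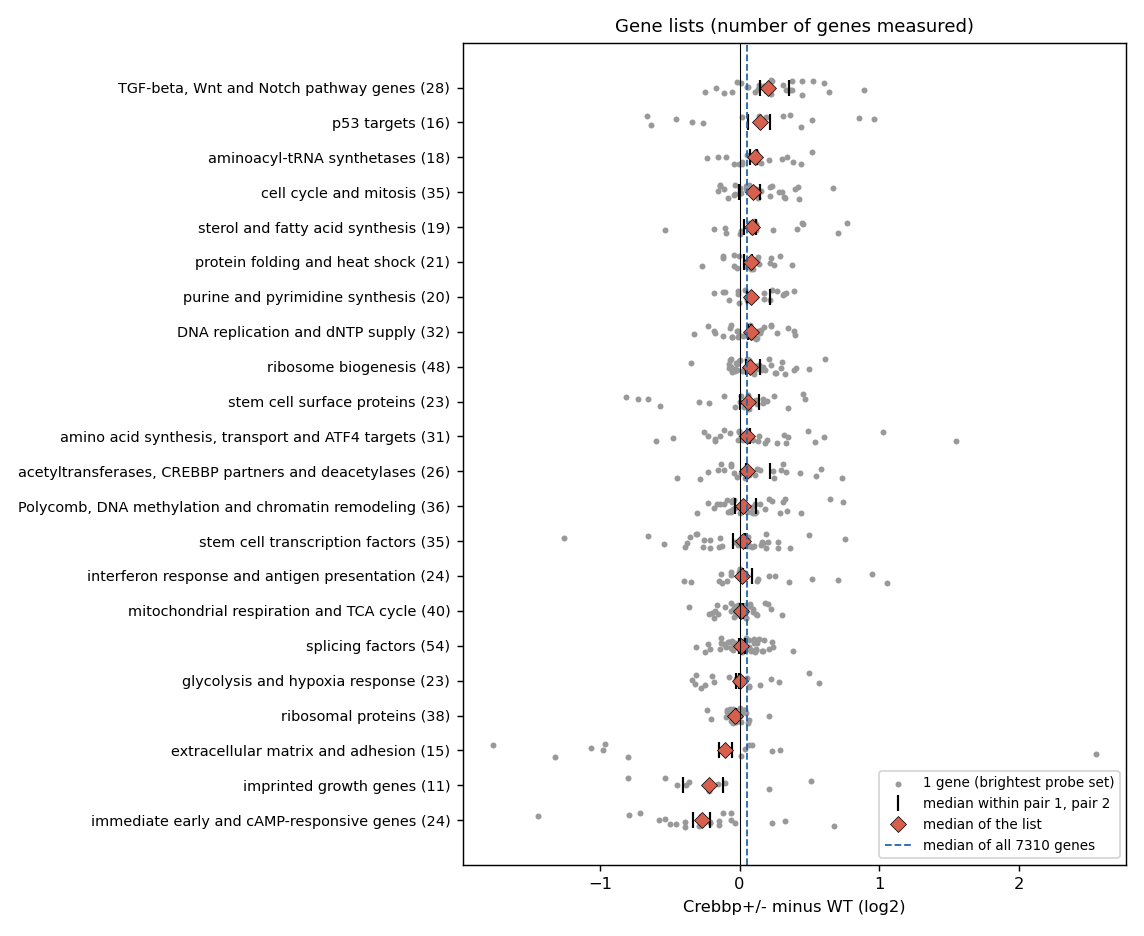
Change of every measured gene at its brightest member (gray points, x axis in log2) in 22 gene lists (y axis, number of genes measured in brackets), with the list median (red), the medians of pair 1 and pair 2 (bars) and the median of all 7310 genes (dashed). The immediate early list sits lowest at -0.27, and TGF-beta, Wnt and Notch genes sit highest at 0.21.

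Genes of TGF-beta, Wnt and Notch signaling had the highest median of the 22 lists, 0.21 (0.15 in pair 1, 0.35 in pair 2). Of 28 genes 14 were higher in both pairs and 1 lower in both, against 40.6% and 24.2% of all genes. The pairs differed in sign for 13. Axin1, a scaffold of the complex that degrades beta-catenin, was at 6.46 and 7.28 in WT and at 7.47 and 8.04 in Crebbp+/- (0.89 ± 0.17, adjusted p = 0.0810). Smurf2, a ubiquitin ligase of SMAD proteins, was at 7.26 and 7.32 against 7.67 and 8.18 (0.64 ± 0.14), and Tgif1, the paralog of Tgif2, at 6.09 and 5.81 against 6.76 and 6.35 (0.60 ± 0.11). Notch1 (0.53), Skil (0.45), Smad5 (0.38) and Smad2 (0.36) were also higher.

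Imprinted growth genes were lower as a list, with a median of -0.22 over 11 measured genes and no overlap between groups for 6 of them, all lower, against 9.21% of all genes without overlap on the lower side and 17.1% on the higher. Igf2, the fetal growth factor, was at 8.18 and 7.56 in WT and at 7.36 and 6.79 in Crebbp+/- (-0.80 ± 0.10, adjusted p = 0.0513), and it was the 1 gene past the unadjusted rule. Its clearance receptor Igf2r was at 8.42 and 8.24 against 7.81 and 7.80 (-0.53 ± 0.11), and Dlk1, a Notch-like ligand, at 8.04 and 8.05 against 7.73 and 7.64 (-0.36 ± 0.10). Rian differed by -0.38 and Impact by 0.51.

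Smaller groups held scattered differences. Among p53 targets, Pmaip1, of the apoptosis inducer NOXA, was at 6.596 and 6.55 in WT and at 7.31 and 7.77 in Crebbp+/- (0.97 ± 0.17), while Plk2 (-0.63 ± 0.12) and the repair gene Ddb2 (-0.66 ± 0.12) were lower, and the median of 16 genes was 0.15. In sterol synthesis, Fdps, of farnesyl diphosphate synthesis, was at 6.61 and 5.38 against 7.27 and 6.26 (0.77 ± 0.13) and Hsd17b7 was higher by 0.71, with 19 genes at a median of 0.09. Of 24 interferon and antigen presentation genes, 2 passed the unadjusted rule higher, Xaf1 (7.24 and 5.99 against 8.004 and 7.35, 1.06 ± 0.17) and Ifi27 (8.44 and 8.14 against 9.01 and 8.99, 0.71 ± 0.12), and the median was 0.02. Among the partners and relatives of CREBBP, the nuclear receptor coactivator Ncoa1 was higher by 0.74 ± 0.21, and the deacetylase genes Sirt1 (8.20 and 7.38 against 8.66 and 8.01, 0.55 ± 0.12) and Hdac4 (0.58 ± 0.13) were higher by less, and none was called. Of 36 Polycomb, DNA methylation and remodeling genes, the remodelers Pbrm1 (9.43 and 8.94 against 9.90 and 9.77, 0.65 ± 0.14) and Chd7 (0.74 ± 0.19) passed the unadjusted rule higher and none lower.

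The same members were read in Ep300+/- FL HSCs, from 2 WT and 2 mutant pools of the same design normalized separately. No probe set was called there in limma's fit. Of the 11109 members, 39 passed the unadjusted rule higher and 20 lower, against 56 (0.42%) and 48 (0.36%) of the 13332 tested. Bcat1 differed by -0.04 ± 0.11 in Ep300+/-, Col4a2 by -0.09 ± 0.11, Sema3d by 0.05 ± 0.24 and the median of the immediate early list was 0.07. The levels of the Ep300 WT pools lay nearer to Crebbp+/- than to Crebbp WT for all 8 called increases, and for 4 of the 11 called decreases. Bcat1 had a mean of 9.26 in Ep300 WT, against 7.97 in Crebbp WT and 9.52 in Crebbp+/-. Sema3d had 6.13, against 3.97 and 6.53, and Gpt2 7.18, against 5.69 and 7.40. Col4a2 had 7.46, against 8.03 and 6.70. These levels come from sets normalized separately, and the cause of the distances between them was not tested. The test of the Crebbp effect minus the Ep300 effect called none, with a smallest adjusted p of 0.149 in limma's fit. For the difference, 564 of the 11109 members passed the unadjusted rule higher and 329 lower, against 692 (5.19%) and 639 (4.79%) of the 13332 tested. With an intensity trend and robust moderation the test of the difference called 25 members. The effects of the 2 genotypes are therefore not shown to differ at the main setting.

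In mouse embryonic fibroblasts (MEFs), Crebbp+/- and WT cultures of 4 litters were compared with a block per litter. No probe set was called in limma's fit, and 0.316% of 15502 tested passed the unadjusted rule higher and 0.645% lower. Of the 19 called members, 10 were measured in MEFs and none was called there. Col4a2 was at 11.56, 11.92, 12.00 and 12.04 in WT MEFs and at 11.23, 11.66, 11.45 and 11.69 in Crebbp+/- MEFs, lower in each litter, by 0.37 ± 0.08 (SE), with an unadjusted p of 0.00374 and an adjusted p of 0.553. Bcat1 was at 8.96, 11.10, 10.85 and 10.75 in WT and 10.52, 11.06, 11.02 and 9.77 in Crebbp+/- MEFs (0.18 ± 0.39). Sema3d differed by -0.32 ± 0.24 and Gpt2 by -0.15 ± 0.15, and Got2, read at the same probe set as above, by -0.02 ± 0.13.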

How the data were processed

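RNA of sorted FL HSC pools was measured on Affymetrix Mouse 430 2.0 arrays. The deposited values are log2 intensities that the authors computed with GCRMA, separately for each set of samples, and how many copies of RNA lie behind a value is unknown. The 45101 probe sets include 64 controls, which were left out. The 2 technical arrays of a pool were averaged. Probe sets whose highest of 8 FL HSC pools reached log2(100) were tested with limma 3.58.1 (R 4.3.3) in 1 paired fit of 4 Crebbp and 4 Ep300 pools with a block per pair, which leaves 2 residual degrees of freedom. Members were called at a Benjamini-Hochberg adjusted p under 0.05 with a fold change over 1.5. The sample numbers were used as pairs as in the study's own paired design, and deviations of same-numbered pools from their group means correlated with r of 0.72. With 2 pools against 2, an exact permutation test cannot give a two-sided p under 0.333. A gene of a list is represented by its brightest member. Named were Crebbp and Ep300. So were the 10 members with the largest change in each direction among those called with both group means at the minimum. Where fewer were called, members with the smallest p filled the places. Also named were all called members with a group mean under the minimum, 7 in each direction, and 3 genes of each list. Other genes were named after their values were seen. The members and lists were chosen with earlier results of these data known. The fit was tested on simulated data. Alternatives covered the block, the filter, the scaling, the technical arrays, the moderation and leaving out each pair.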

Additional observations from a re-analysis of the deposited data

Results flagged for a closer look

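In WT MEFs, the Bcat1 probe set had 1 culture far below the others, at 8.96 against 10.75 to 11.10, and the gap to the nearest culture was 0.833 of the whole range. In groups of 4 such a gap arises by chance in about 1 of 20. Every called member measured in MEFs was screened in both genotypes, so a gap of this size is to be expected somewhere among them by chance.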

How the results depend on the processing

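The 19 calls depend on the settings, while the direction of the called members did not change under any alternative in which they were tested. The call selects members whose 2 pairs agree, so their direction could hardly change and says little of how firm they are. No member was called without the replicate block, with only the 4 Crebbp pools, without a filter on the level, with values under log2(100) set to it, with only technical array 1 or 2, or after adjustment by the methods' own paired test, which called 105 members before adjustment. Leaving out replicate 1 or 2 gave 0 calls in either case, with the spread of the single remaining pair taken as that of the Ep300 pools. More were called with the filter on the highest (127) or the mean (124) of the 4 Crebbp pools, with centred pools (89), with quantile normalization (77), without _x_at and _s_at probe sets (91) and with an intensity trend and robust moderation (580). Over the brightest members alone 6 were called. The count by the unadjusted rule, 844 in total, was 407 without the replicate block, 491 with values set to the minimum, 415 over the brightest members, and 981 to 1477 when a pair was left out. The median change was 0.0208 with centred pools, 0.0256 with quantile normalization and 0.0485 to 0.078 with a pair left out, and r between pairs was 0.308 and 0.268 with technical array 1 or 2 alone. The Crebbp minus Ep300 difference had 25 calls with the trend and robust moderation. Signs turned in small or dim values. With values set to the minimum these were Alb (-0.208), Apoa1 (-0.305), Pdgfrb (-0.0285) and Ttr (-0.101). With centred pools and with quantile normalization they were Cd93 (-0.039 and -0.0156) and the middle Crebbp probe set (-0.0325 and -0.0433). With technical array 1 it was Cd93 (-0.022), and with array 2 the middle Crebbp probe set (-0.067), Kdm5d (0.111), Rpl12 (0.0095) and Rpl14 (-0.0515). With a pair left out, the change ranged from -1.324 to 3.425 for Alb, -0.85 to 2.304 for Apoa1, -0.201 to 3.501 for Ttr, -0.138 to 0.556 for Rpl14, -0.057 to 0.591 for Pdgfrb, -0.25 to 0.056 for Nfe2, -0.0215 to 0.264 for Kit, -0.097 to 0.106 for Cd93, and -0.159 to 0.181 and -0.114 to 0.249 for the middle and brightest Crebbp probe sets. The cause was not tested.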
